A study of Mus musculus with 12 samples.

Results

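The S100 proteins are small calcium sensors, and the genes described here are the 8 S100 genes S100a1, S100a4, S100a6, S100a10, S100a11, S100a13, S100a16 and S100b. They were chosen by symbol, from 17 S100 protein genes and 55418 genes in the count table, of which 9768 had at least 20 counts over all cells. An S100 protein usually binds calcium through EF-hand loops, changes shape and then docks onto a target such as an annexin, myosin or a signalling protein. Fibroblasts are known to express S100a4, S100a6, S100a10 and S100a11 strongly, while S100b is better known from glia and cartilage cells and S100a1 from heart and skeletal muscle.

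The study sequenced 12 single cells by Smart-Seq2, which amplifies full-length cDNA and counts no molecules, with 6 cells from Tnmd-/- ScxGFP+ mice and 6 from Tnmd WT ScxGFP+ mice. Both groups were on a C57BL/6 background, untreated, and taken from uninjured Achilles tendon by collagenase digestion for 8 hours, and every cell carried the ScxGFP reporter of the tendon transcription factor Scx and was picked by its fluorescence with a micromanipulator. Tnmd encodes tenomodulin, a tendon membrane glycoprotein, and was deleted constitutively. Because Tnmd is X-linked, the study's WT animals included heterozygous females. The age of the mice is not given in the labels, and no animal is named for any cell. The study names a pair of tendons, without saying whether in all or for each genotype, and ties no cell to a tendon. Each genotype was therefore treated as 1 sample, and no p-value, standard error or count of significant genes was computed.

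Total counts per cell ran from 892713 to 10333351 in the Tnmd-/- cells and from 4516036 to 13613080 in the WT cells. Tnmd-/- cells 3 and 7 were the shallowest, and in Tnmd-/- cell 3 the mitochondrial share was 51.8%, compared with 1.75% to 7.30% elsewhere. The study marked 3 cells of each genotype as less degraded (Tnmd-/- cells 9, 10 and 20 and WT cells 4, 5 and 10) and 3 as more degraded, and the less degraded cells are also the 6 deepest, so degradation and depth cannot be told apart. Tnmd had 8 counts in all Tnmd-/- cells together. Among the WT cells it reached at least 10 counts only in WT cell 14, with 10178 counts, and the other 5 WT cells had 0 to 7. Of the 12 tendon fibroblast markers, Dcn, Comp and Col1a2 had at least 10 counts in every cell, Thbs4 in 10, Fmod in 8, Col1a1 in 5, Lum and Col3a1 in 4, Mkx in 3 and Kera in 0. Scx itself reached that level in 3 WT cells and in 0 Tnmd-/- cells. Levels within a gene are given as counts per 1000000 counts of the cell (CPM), and genes are compared with each other only as TPM, the counts divided by exon length and scaled to the same total in each cell. A gene is called seen in a cell with at least 10 counts.

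In the mouse genome 7 of the 8 genes lie on chromosome 3, in 2 groups. The first group spans 113148 bases of build GRCm38 and holds S100a1 (chr3:90511034-90514392, minus strand), S100a13 (chr3:90514435-90524581), S100a16 (chr3:90537254-90543151), S100a4 (chr3:90603771-90606045) and S100a6 (chr3:90612882-90624181). The second spans 44156 bases and holds S100a11 (chr3:93520488-93526287) and S100a10 (chr3:93555080-93564643), and S100b stands apart at chr10:76253853-76261159. All but S100a1 are on the plus strand. S100a1 and S100a13 are transcribed away from each other, from GENCODE starts 43 bases apart. S100a4 shares 51.7% of its exon bases with Gm42674 on the same strand, which had 0 counts in every cell, so its level is uncertain, and the exons of the other 7 genes overlap no other gene.

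Promoter windows of 300 bases, 250 before and 50 after the start, were taken from RefSeq (GRCm38.p6), which held 7 of the 8 genes; S100a10 had no entry. The windows of S100a1 and S100a13 share 204 bases, shown in capitals in the S100a13 window. The S100a1 window spans chr3:90514281-90514580. Its RefSeq start is not the GENCODE start from which the 43 bases above were measured.
S100a13, chr3:90514185-90514484, plus strand: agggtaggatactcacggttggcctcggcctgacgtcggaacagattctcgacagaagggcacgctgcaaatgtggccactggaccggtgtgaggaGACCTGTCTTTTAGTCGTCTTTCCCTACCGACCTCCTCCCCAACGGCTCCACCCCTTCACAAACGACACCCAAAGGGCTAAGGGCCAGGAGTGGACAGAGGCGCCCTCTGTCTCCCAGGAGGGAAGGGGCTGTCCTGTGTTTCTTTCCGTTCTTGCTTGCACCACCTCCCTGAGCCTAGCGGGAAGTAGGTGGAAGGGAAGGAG
S100a11, the gene with the widest spread between cells among those with a count in every cell, and S100a4 are shown with matches to 3 searched motifs in capitals. These are the AP-1 motif, written TGACTCA, the GC box, written GGGCGG, and the TATA box, with the letters TATAAA, each searched on both strands.
S100a11, chr3:93520246-93520545, plus strand: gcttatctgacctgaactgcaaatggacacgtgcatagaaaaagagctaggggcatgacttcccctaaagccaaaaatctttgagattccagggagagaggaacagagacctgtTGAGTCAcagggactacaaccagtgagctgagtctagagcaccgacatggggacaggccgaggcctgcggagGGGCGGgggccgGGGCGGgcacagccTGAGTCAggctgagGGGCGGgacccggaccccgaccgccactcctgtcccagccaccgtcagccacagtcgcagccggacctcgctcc
S100a4, chr3:90603520-90603819, plus strand: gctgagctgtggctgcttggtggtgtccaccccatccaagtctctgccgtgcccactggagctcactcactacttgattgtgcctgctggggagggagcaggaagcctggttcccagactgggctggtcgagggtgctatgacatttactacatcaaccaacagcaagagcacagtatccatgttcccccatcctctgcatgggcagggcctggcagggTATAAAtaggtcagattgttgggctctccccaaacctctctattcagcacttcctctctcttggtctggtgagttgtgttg
The S100a11 window holds 2 AP-1 matches, read on the strand printed as TGAGTCA, and 3 GC boxes, and the S100a4 window holds 1 TATA box. Among 32851 promoter windows of the same length, 5.2% held TGACTCA, 35.7% GGGCGG and 13.6% TATAAA. A second start of S100a16 had 1 GC box, and the windows of S100a1, S100a13, S100a6 and S100b held none of these letters. Such matches describe the sequence only.

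Per length, S100a10 and S100a6 made up most of the S100 level in ScxGFP+ cells. Together they accounted for 45.8% to 98.2% of the TPM of the 8 genes, with a median of 78.5%. S100a10 was the highest of the 8 in 9 of 12 cells, S100a6 in 2 and S100a11 in 1. By median TPM over the 12 cells the order was S100a10 (4315), S100a6 (1553), S100a11 (515), S100a4 (203) and S100a1 (5.25), followed by S100a13 (0.829), S100a16 (0.717) and S100b (0). The ranges of all neighbours in this order overlapped. S100a10 ranked from 21st to 180th among all genes of a cell per length, and S100a6 from 31st to 822nd.

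**Figure D1:**
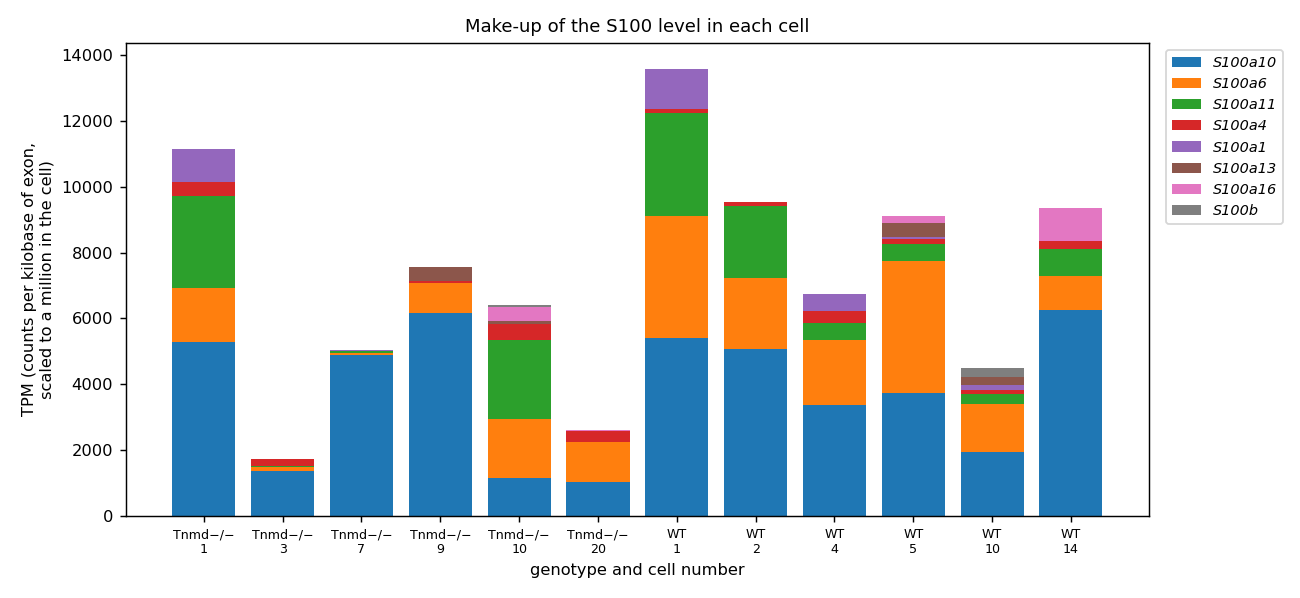
Stacked bars give the TPM of each of the 8 S100 genes in each cell, grouped by genotype and cell number. S100a10 and S100a6 form 45.8% to 98.2% of each bar, and S100a1, S100a13, S100a16 and S100b appear as layers in some cells only.

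S100a6 and S100a10 were seen in all 12 cells, that is 2 of the 8 genes, against 2.18% of the 9768 genes. S100a4 was seen in 11 cells, S100a11 in 9, S100a1 in 5, S100a13 and S100a16 in 4 each and S100b in 2. The 6 Tnmd-/- cells had 2 to 7 of the 8 genes (median 4) and the 6 WT cells 4 to 8 (median 5). All 8 were seen in WT cell 10, the deepest cell. When every cell was thinned to 892713 counts, the ranges were 2 to 7 and 4 to 7.

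Between genotypes, raw counts were summed over the 6 cells and divided by their summed totals. The 8 genes together came to 2619 CPM in the Tnmd-/- cells and 3510 CPM in the WT cells, a log2 ratio of -0.42, and as a mean over cells the ratio was -0.69 with total counts, -0.014 with TMM scaling and 0.47 with DESeq2 scaling. Single Tnmd-/- cells ran from 1102 to 3947 CPM (median 2146) and WT cells from 2144 to 4872 CPM (median 4019), so the ranges overlapped. S100a1 and S100b were at least 2-fold lower in the Tnmd-/- cells, 2 of the 8, against 38.3% of the 9768 genes. None was at least 2-fold higher, 0 of the 8 against 39.7%. Among the 1081 genes seen in at least 8 cells, which hold S100a4, S100a6, S100a10 and S100a11, 15.0% were 2-fold lower and 18.4% 2-fold higher, and 0 of these 4 S100 genes passed in either direction. The CPM ranges of the genotypes overlapped for each of the 8 genes, and for 0.0410% of all 9768 genes they did not overlap. The median log2 ratio over the 9768 genes was 0.08.

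**Figure D2:**
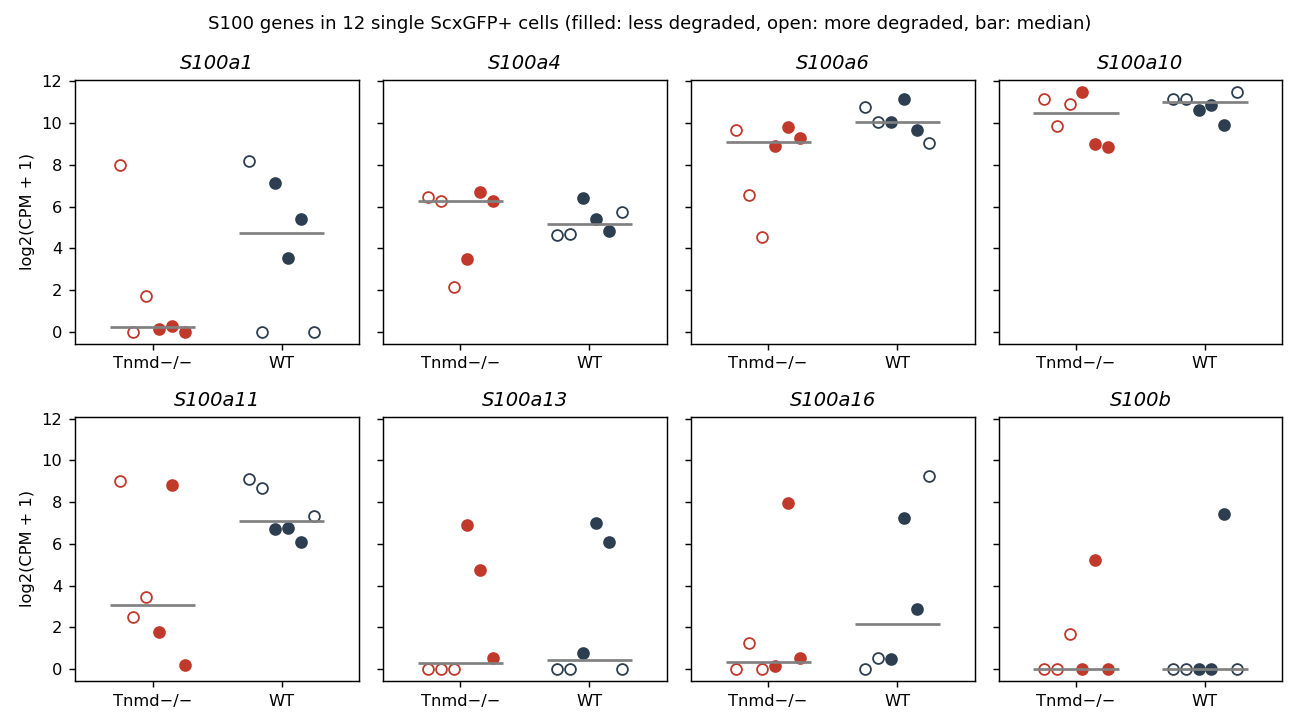
Each panel gives log2(CPM + 1) of 1 S100 gene in the 6 Tnmd-/- and 6 WT cells, with filled points for less degraded cells, open points for more degraded cells and a bar at the median. S100a10 is high in every cell, S100a6 lies lower in several Tnmd-/- cells, and S100a1, S100a13, S100a16 and S100b are near 0 in most cells.

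S100a10, also called p11, differs from its relatives in that it does not need calcium, and it joins annexin A2 in a complex at the plasma membrane. Its CPM was 2285, 925, 1965, 2885, 519 and 465 in Tnmd-/- cells 1, 3, 7, 9, 10 and 20. In WT cells 1, 2, 4, 5, 10 and 14 it was 2254, 2249, 1584, 1867, 960 and 2909. The lowest levels were in Tnmd-/- cells 10 and 20, both deep and less degraded, and the shallow Tnmd-/- cell 7 lay within the WT range. Summed over cells the level was 1527 CPM against 1736 CPM, a log2 ratio of -0.19 with a 95% counting interval from -0.20 to -0.17. Such intervals cover counting error only, since the reads carry no molecular identifiers. The ratio ran from -0.85 without Tnmd-/- cell 9 to 0.16 without Tnmd-/- cell 10, and as a mean over cells it was -0.39 with total counts, 0.58 with TMM and 1.04 with DESeq2 factors, so its direction was not stable. S100a10 spread the least of the 8, with a 6.13-fold range of TPM over the 12 cells.

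S100a6, or calcyclin, binds annexins and the calcyclin-binding protein Cacybp. Its CPM was 811, 94.4, 22.4, 474, 899 and 626 in Tnmd-/- cells 1, 3, 7, 9, 10 and 20, and 1751, 1079, 1045, 2261, 804 and 536 in WT cells 1, 2, 4, 5, 10 and 14. In 3 Tnmd-/- cells (3, 7 and 9) S100a6 was below every WT cell, and in 4 WT cells (1, 2, 4 and 5) it was above every Tnmd-/- cell. The summed level was 651 CPM against 1296 CPM, a log2 ratio of -0.99 (95% counting interval -1.01 to -0.97), just short of 2-fold. Within the less degraded cells the ratio was -1.0 and within the more degraded cells -1.03. It was negative under all 19 alternatives. With each cell left out it ran from -1.24 without Tnmd-/- cell 10 to -0.64 without WT cell 5, and as a mean over cells it was -1.35 with total counts, -1.46 with TMM and -1.18 with DESeq2 factors. Without both shallow Tnmd-/- cells it was -0.90. S100a6 was also related to depth, with a Pearson r of 0.86 and a Spearman rho of 0.48 between its log2(CPM + 1) and the total counts over 12 cells of both genotypes, and the part of depth in the ratio was not tested.

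The balance of S100a6 and S100a10 per length differed from cell to cell. S100a6 exceeded S100a10 in Tnmd-/- cell 10 (ratio 1.54), Tnmd-/- cell 20 (1.19) and WT cell 5 (1.07). In Tnmd-/- cell 7 the ratio was 0.0101. The Tnmd-/- median was 0.230 and the WT median 0.637, with overlapping ranges. Across the 12 cells log2(CPM + 1) of both genes had a Pearson r of 0.03.

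S100a11, a partner of annexin A1 in membrane repair and keratinocyte growth, was present in every WT cell and nearly missing from most Tnmd-/- cells. It had 2717, 7, 9, 25, 4695 and 1 counts in Tnmd-/- cells 1, 3, 7, 9, 10 and 20, and 3315, 1962, 1296, 1283, 899 and 736 in WT cells 1, 2, 4, 5, 10 and 14. In CPM, 4 Tnmd-/- cells were below every WT cell, among them cells 9 and 20 with 2.42 and 0.148 CPM, which were deep and less degraded. Tnmd-/- cells 1 and 10, at 512 and 456 CPM, held 99.4% of the counts of their genotype and lay near the top of the WT range of 66.0 to 553 CPM. S100a11 was thus seen in 3 of 6 Tnmd-/- and 6 of 6 WT cells. Across all genes, 3.78% were seen in at least 3 more WT than Tnmd-/- cells, S100a1 and S100a11 among them, a count chosen after these values were seen. The summed level, 212 CPM against 178 CPM (log2 ratio 0.26), rested on those 2 cells and read -0.67 without Tnmd-/- cell 10 and -0.51 with equal weight for each cell. Between the least and the most S100a11 per length lay a 4061-fold range.

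S100a4, known as fibroblast-specific protein and a regulator of non-muscle myosin, was seen in every cell but Tnmd-/- cell 7, which had 3 counts. Its CPM was 87.4, 76.4, 3.36, 10.3, 104 and 75.6 in Tnmd-/- cells 1, 3, 7, 9, 10 and 20. In the WT cells 1, 2, 4, 5, 10 and 14 it was 24.2, 25.1, 85.3, 41.9, 27.8 and 52.5. The Tnmd-/- cells held both the highest and the lowest value, and their median of 76.0 CPM lay above the WT median of 34.8 CPM. The summed log2 ratio was 0.50 (65 against 46 CPM), positive under all 19 alternatives, from 0.08 without Tnmd-/- cell 10 to 1.89 as a mean over cells with DESeq2 factors (0.48 as a mean with total counts). It was 0.27 in the less and 1.20 in the more degraded cells.

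S100a1, a regulator of calcium release in muscle, was high in some cells and at or near 0 in the others. It had 1340 counts in Tnmd-/- cell 1 and at most 2 in the other 5 Tnmd-/- cells. WT cells 1, 4, 10 and 5 had 1734, 1721, 552 and 126 counts, and WT cells 2 and 14 had 0. The gene was seen in 1 Tnmd-/- and 4 WT cells. The summed level was 38.3 CPM against 77.3 CPM, a log2 ratio of -1.01, and 99.6% of the Tnmd-/- counts came from cell 1. Without that cell the ratio was -8.85, and without WT cell 1 it was -0.40. It was -9.17 in the less degraded cells and turned to 0.62 in the more degraded cells.

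S100a13 assists the release of FGF1 from cells by a route outside the secretory pathway. It was seen in Tnmd-/- cells 9 and 10 (1237 and 264 counts) and in WT cells 5 and 10 (1513 and 907 counts), all less degraded cells. The remaining cells had at most 9 counts, and all 6 more degraded cells had 0. Summed levels were 42.9 CPM and 45.5 CPM, a log2 ratio of -0.08, which ran from -2.08 without Tnmd-/- cell 9 to 0.95 without WT cell 5. S100a13 and its divergent neighbour S100a1 were seen together in 2 of the 7 cells that had either, WT cells 5 and 10. For the other neighbouring members, Pearson r over 12 cells was 0.49 for S100a4 and S100a6, 0.36 for S100a13 and S100a16 and 0.31 for S100a11 and S100a10.

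S100a16, a widely expressed member of the family, was seen in Tnmd-/- cell 10 (2540 counts) and in WT cells 14, 5 and 10 (2791, 1796 and 87 counts). Every other cell had at most 5 counts. The summed log2 ratio was -0.27, and it was 0.91 in the less and -9.46 in the more degraded cells. S100b was the rarest, with 375 counts in Tnmd-/- cell 10, 2352 in WT cell 10 and at most 2 elsewhere. Its log2 ratio of -2.03 compares 1 cell with 1 cell, and without WT cell 10 it turned to a bound of at least 7.16, set against a floor of 3 counts. By Dixon's critical value a cell stood apart in 6 of the 16 pairs of S100 gene and genotype, against 70.5% of the pairs over all genes with a count. For a cell with 0 counts, the floor of 3 counts stood at 0.290 to 3.36 CPM for Tnmd-/- and 0.220 to 0.664 CPM for WT cells.

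**Figure D3:**
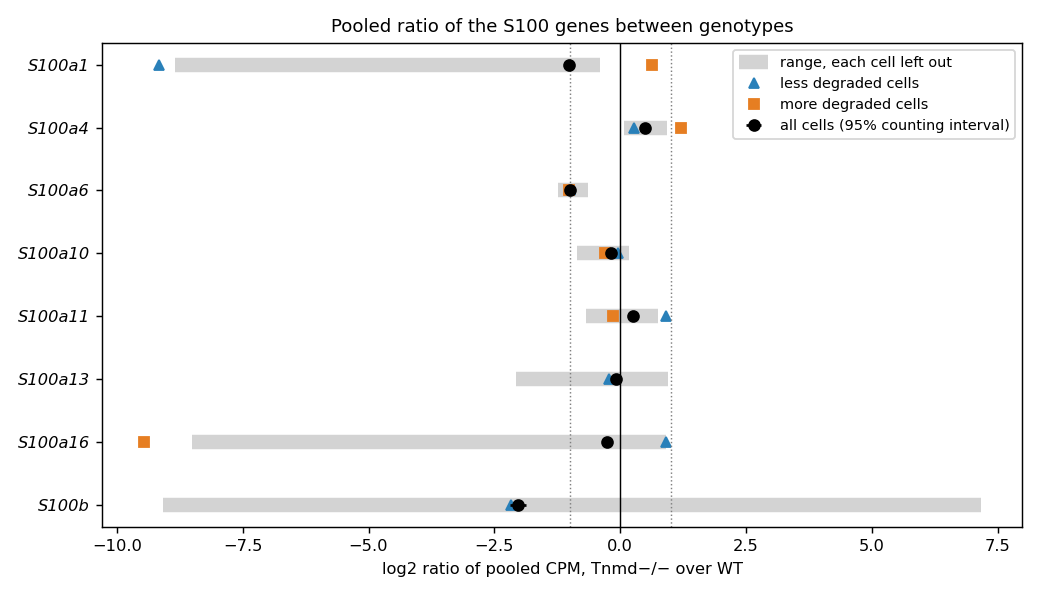
Black points give the log2 ratio of summed CPM, Tnmd-/- over WT, with a 95% counting interval mostly narrower than the point, grey bars the range when each cell is left out, triangles and squares the ratio in less and more degraded cells, and dotted lines a 2-fold difference. No square is drawn for S100a13 and S100b, which had at most 2 counts in the more degraded cells. The grey bar of S100a6 stays between -1.24 and -0.64, while those of S100a1, S100a16 and S100b span several log2 units, and the right end of the S100b bar is a bound.

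Markers of other cell types that express S100b were read beside these values. Of 9 Schwann cell and glia markers, 5 had 0 counts in every cell, Sox10 among them, and the list summed to 0 to 97.0 CPM in Tnmd-/- and 0 to 0.207 CPM in WT cells. Neither S100b cell was the top cell of that list, since Mbp (419 counts) and Prx (575 counts) came from Tnmd-/- cell 9. Of 10 cartilage markers, 5 were at 0, Col2a1 among them. The list ran from 216 to 15695 CPM in Tnmd-/- and from 3196 to 21719 CPM in WT cells, with Chad the main gene. Hapln1 was seen only in the 2 cells where S100b was seen, at 1930 counts in Tnmd-/- cell 10 and 1041 in WT cell 10. Elsewhere it had at most 4 counts. Its Pearson r with S100b was 0.96 and Spearman rho 0.90, a relation that rests on those 2 cells. Acan had 10741 and 354 counts in these cells, but also 8768 in Tnmd-/- cell 9 and 1130 in WT cell 2. Sox9 had 425 and 35 there, with its most, 4980 counts, in Tnmd-/- cell 9.

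The annexins, the main docking partners of S100a6, S100a10 and S100a11, together reached 8430 CPM (Tnmd-/-) and 10099 CPM (WT). Of 12 annexin genes, 7 had at least 20 counts and Anxa6, Anxa9, Anxa10 and Anxa11 had 0 in every cell. At least 2-fold higher in the Tnmd-/- cells was Anxa3 (log2 ratio 2.02), and lower were Anxa4 (-1.15) and Anxa8 (-1.46). Anxa1 (-0.08), Anxa2 (0.40), Anxa5 (0.15) and Anxa7 (-0.23) stayed within 2-fold, and the median of the 7 was -0.08. Over all genes 39.7% were 2-fold higher and 38.3% 2-fold lower, the background for this and the next lists. The ratio of Anxa3 was -7.20 in the more degraded cells, and WT cell 1 held 99.7% of its WT counts. Anxa8 was seen in all 12 cells, at 87.1 to 1877 CPM in Tnmd-/- and 714 to 4353 CPM in WT cells, which overlap.

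S100a10 and its partner Anxa2 showed no clear relation from cell to cell. Anxa2 was seen in 11 cells and had 7 counts in Tnmd-/- cell 7, where S100a10 had 1754. Their log2(CPM + 1) values had a Pearson r of 0.03 and a Spearman rho of 0.13 over the 12 cells. S100a6 and Anxa2 had a Pearson r of 0.76 but a Spearman rho of 0.36, and both genes were lowest in the shallow Tnmd-/- cells 3 and 7. S100a11 and Anxa1 had an r of 0.21, S100a6 and Cacybp 0.32, and S100a4 and Myh9, a myosin heavy chain, -0.52. These values share libraries and depth and are descriptions over 12 cells of both genotypes. Of 11 other binding partners, 10 had at least 20 counts. Higher by 2-fold were Trp53 (2.10) and Ctsb (1.02), a lysosomal protease, and lower were Fgf1 (-9.52), the tissue plasminogen activator Plat (-4.05) and Myh9 (-1.06). The directions of Trp53 (-0.75) and Myh9 (2.23) were opposite in the more degraded cells. Tnmd-/- cell 7 held 98.1% of the Myh9 counts of its genotype, and WT cell 5 held all WT counts of Plat. Fgf1, the cargo of S100a13, had 6751 counts in WT cell 1 and 1083 in WT cell 10, and only the latter also showed S100a13.

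**Figure D4:**
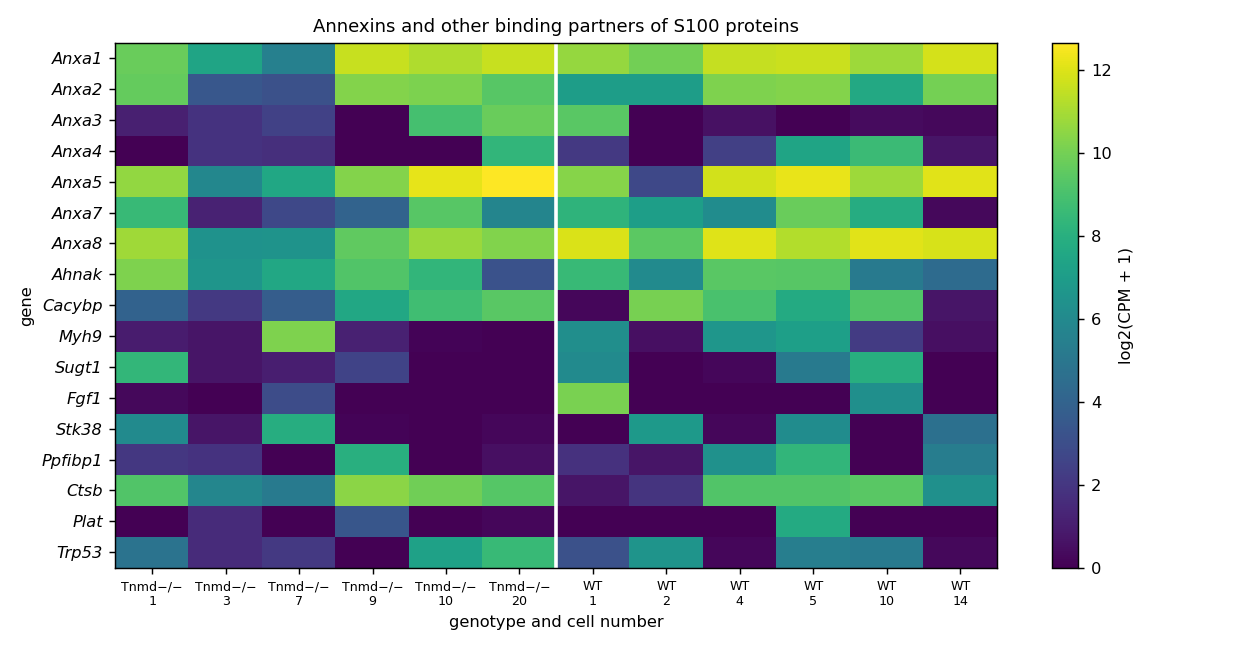
The map gives log2(CPM + 1) of the annexins and other binding partners with at least 20 counts, with 1 column per cell and 1 line per gene. Anxa1, Anxa5 and Anxa8 are high in most cells, Anxa2 is low in Tnmd-/- cells 3 and 7, and Fgf1 is bright in WT cell 1.

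Receptors for released S100 proteins were sparse. Ager, the receptor for advanced glycation end products, had 0 counts in every cell. Tlr4 and Bsg were lower in the Tnmd-/- cells (log2 ratios -1.29 and -1.07). Single cells weighed heavily in both, since Tnmd-/- cell 10 held 99.2% of the Tlr4 counts of its genotype. For Bsg, Tnmd-/- cell 9 held 76.6% and WT cell 10 held 65.7% of the counts of their genotypes. Cd36 had 121 counts in Tnmd-/- cell 1 and 0 in the WT cells. Of 14 other EF-hand calcium proteins, 13 had at least 20 counts, of which 6 were 2-fold higher and 2 lower, against the shares of 39.7% and 38.3% over all genes. The 4 highest with counts in both genotypes were Pef1 (3.33), the endoplasmic reticulum proteins Rcn1 (3.28) and Rcn2 (1.71), and Calu (1.54). Lower were Rcn3 (-9.45) and Sri (-4.99). All Rcn1 counts came from Tnmd-/- cell 9 and WT cell 14. WT cell 4 held all WT counts of Sri and 99.0% of those of Pef1. In the more degraded cells Rcn1, Rcn2 and Sri had the opposite sign, with Rcn2 at -5.96. Rcn1 (-5.31, 0 against 236 counts) and Sri (1.99, 6 against 0 counts) gave only bounds there, set against 3 counts. The median ratio of the 13 over all cells was 0.85.

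Among the 1081 genes seen in at least 8 cells, those whose log2(CPM + 1) was most like each S100 gene over the 12 cells were named. For S100a6 these were Fxyd5 (Pearson r 0.91), Rpl7a (0.91) and Rps27a (0.90), with Spearman rho of 0.76, 0.43 and 0.59. For S100a11 they were Iqgap1 (0.90), Banf1 (0.85) and Wbp2 (0.81), with Spearman rho of 0.92, 0.71 and 0.65. S100a4 was most like Gm9843 (0.86), Fau (0.85) and Rpl31-ps8 (0.83), with rho of 0.85, 0.80 and 0.73. S100a10 had no close match, with Zfand2a at 0.74, Lamb2 at 0.63 and Ccnl1 at 0.59 (rho 0.62, 0.57 and 0.54). These are the highest 3 of 1080 comparisons for each gene, over cells that differ in depth. Reads of the pseudogene Rpl31-ps8 may be shared with its parent gene.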

How the data were processed

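Single ScxGFP+ cells of 2 genotypes were sequenced by Smart-Seq2, and 1 table of the series was used. The deposited values are raw counts per gene and cell. Per the labels and the study's methods, the authors aligned reads with STAR 2.5.1b to GRCm38 and counted unique exon reads with featureCounts of Subread 2.0.0, after FastQC 0.11.9 and MultiQC 1.9. Whether counting used strand is not given in the sources used here. No normalization or degradation correction is in the counts.

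Groups came from the sample labels and degradation levels from the study's annotation of the cells. Counts were summed per genotype and divided by summed totals times 1000000 (CPM). Ratio intervals are exact Clopper-Pearson intervals at 95%, a genotype at 0 counts gave a bound against 3 counts, and correlations used log2(CPM + 1). No test was run, because the labels name no animal. The alternatives were equal weight per cell, edgeR 4.0.16 TMM factors, DESeq2 1.42.0 size factors, totals less the mitochondrial and 50 most counted genes, the less and the more degraded cells alone, each cell left out, 1 count for a gene to be seen, thinning to 892713 counts, 10 CPM added before the logarithm, Spearman correlation and other gene filters. Leaving out both shallow Tnmd-/- cells, and the set of genes seen in at least 8 cells, were chosen after seeing the data.

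The genes named are the 8 members, other S100 genes seen in a cell, list genes with at least 20 counts (at most 4 higher and 4 lower per list), marker genes and the 3 genes most like each member seen in at least 8 cells. At most 3 marker genes per list were planned, and more are named for tendon, cartilage and immune markers. The members and lists (annexins, binding partners, receptors, other EF-hand proteins and markers of tendon, glia, immune, cartilage, endothelial, mural and adipocyte cells) were chosen with earlier results of these data known. A glia marker is not reported here. Gene positions and exon lengths came from GENCODE for GRCm38. R 4.3.3, Python 3.11.15, pandas 2.3.3 and scipy 1.17.1 were used, and the ratio was tested on simulated data.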

Additional observations from a re-analysis of the deposited data

Results flagged for a closer look

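In the 16 groups formed by the 8 S100 genes and both genotypes, 6 had a cell far above the other 5, by Dixon's critical value. Chance sets apart about 1 in 20 groups of normally distributed values. Over all genes with a count in these sparse data, however, 70.5% of such groups had a cell that stood apart, so the count of 6 is no excess. S100a1 stood at 252 CPM in Tnmd-/- cell 1, against 2.24 CPM in the next Tnmd-/- cell. S100a13 stood at 120 CPM in Tnmd-/- cell 9, against 25.6 CPM in the next. S100a16 stood apart in both genotypes, at 246 CPM in Tnmd-/- cell 10 and at 618 CPM in WT cell 14, with 1.33 and 149 CPM in the next cells. S100b also stood apart in both, at 36.4 CPM in Tnmd-/- cell 10 and at 173 CPM in WT cell 10. The genes S100a4, S100a6, S100a10 and S100a11 had no such cell.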

How the results depend on the processing

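The ratio of S100a6 stayed negative and that of S100a4 positive under all 19 alternatives, while S100a10 was negative under 15 and positive under 4, and S100a11 negative under 7 and positive under 12. The ratio of S100a1 turned to 0.62 in the more degraded cells, and that of S100b ran from -9.09 to 7.16 when each cell was left out, positive only without WT cell 10. The summed S100 log2 ratio of -0.42 became -0.69 with equal weight per cell, and as the same mean over cells -0.014 with TMM scaling and 0.47 with DESeq2 scaling. It was -0.45 with totals less the mitochondrial and top genes, -0.36 in the less and -0.46 in the more degraded cells, -0.38 without both shallow Tnmd-/- cells, and from -0.64 (without Tnmd-/- cell 9) to -0.24 (without Tnmd-/- cell 20) with each cell left out; the cause was not tested. The median log2 ratio over 7535 genes with counts in both genotypes was -0.18 with equal weight, -0.18 with TMM and 0.02 with DESeq2 factors. The number of S100 genes past 2-fold, 2 with all cells, was 3 with equal weight per cell, and as a mean over cells 4 with TMM and 5 with DESeq2 factors (2 of them higher). It was 1 without both shallow cells and 1 to 3 with each cell left out. The number seen in every cell, 2, became 4 when 1 count sufficed and 2 to 3 with each cell left out. With a minimum of 1 count in place of 20, 30.0% of all genes were 2-fold lower and 35.2% higher. No paired analysis was possible because cell numbers name picked cells and pair nothing across genotypes. With cells not tied to animals or tendons, and each genotype taken as 1 sample, differences between genotypes cannot be told apart from differences between animals or cells, and genes under about 3 counts per cell are below what the shallow cells could show.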

Other observations

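Of the 9 other S100 genes, 6 had 0 counts in every cell and 3 were seen in a cell. S100g, the vitamin D dependent calcium-binding protein of gut and kidney, had 1590 counts in Tnmd-/- cell 20, 349 in WT cell 4 and 2 in Tnmd-/- cell 3. S100a3, known from hair cuticle, had 820 counts in Tnmd-/- cell 10, the same cell that held S100a16 and S100b, and 2 in WT cell 10. S100a8, a neutrophil and monocyte protein, had 32 counts in WT cell 1, while its usual partner S100a9 had 0 in every cell. S100pbp, which encodes a binding protein of S100 proteins and is no S100 gene, had 332, 55 and 751 counts in Tnmd-/- cells 3, 9 and 20 and 199 in WT cell 1.

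Of 10 macrophage and neutrophil markers, 6 had 0 counts in every cell, Ptprc and Lyz2 among them. The list summed to 0 to 266 CPM in Tnmd-/- and 0.160 to 361 CPM in WT cells. Besides S100a8, the markers seen were Cd14 and Itgam. Cd14 had 2741 counts in Tnmd-/- cell 9, 4335 in WT cell 5 and 1525 in WT cell 10. Itgam had 1110 counts in Tnmd-/- cell 1. Endothelial markers summed to at most 30.9 CPM and adipocyte markers to at most 922 CPM, both in Tnmd-/- cells. Mural markers summed to at most 118 CPM in Tnmd-/- and 641 CPM in WT cells. The only genes of these lists seen in a cell were Pecam1, Fabp4 (1387 counts in Tnmd-/- cell 3) and Cspg4. Of 12 tendon fibroblast markers, 11 had at least 20 counts. Of these, 5 were 2-fold lower in the Tnmd-/- cells and 0 higher, against 38.3% and 39.7% of all genes. The lower genes include Tnmd itself, the deleted gene, whose direction was set by the design. The median log2 ratio of the 11 genes, Tnmd included, was -0.49.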
